A study of Homo sapiens with 3 samples.

Results

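Ribosome biogenesis and nucleolar factors are the proteins that transcribe, cut, modify and fold ribosomal RNA in the nucleolus and join it to ribosomal proteins. The set described here holds 37 named genes, made up of MYC, components of the RNA polymerase I machinery, the proteins of the small nucleolar ribonucleoprotein particles (snoRNPs), abundant nucleolar RNA-binding proteins and assembly factors of the small and the large ribosomal subunit. Of these, 36 were found among the 48162 genes of the deposited tables through their GENCODE 29 symbols, and BOP1 is not analysed here. All 36 had a mean of at least 1 FPKM, a read count divided by transcript length and library depth, over the libraries and so belong to the 12649 genes analysed.

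The RNA came from MDA-MB-231, an established human triple-negative breast cancer cell line with mesenchymal features. There were 3 libraries, 1 in each group: cells depleted of FoxO3, cells depleted of both Geminin and FoxO3 (called co-depleted), and control cells. Per the labels, cells were exposed to lentivirus for 24 hours and harvested 72 hours after the medium was changed, and no label exempts the control from this. The labels also give 10% serum for all 3 libraries. FoxO3 is a forkhead transcription factor and Geminin an inhibitor of replication licensing. The sources used here give neither the sequences that depleted them nor the control's vector. With 1 library in a group, no difference below has a replicate check, and none was tested.

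In growing cells RNA polymerase I copies the ribosomal genes into one long precursor, which snoRNPs methylate and pseudouridylate while assembly factors fold and cleave it into the small and large subunits. MYC, a transcription factor, is known to activate many genes of this pathway as well as polymerase I itself, and cancer cells often have enlarged nucleoli. The pathway as a whole is essential for cell growth.

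In both depleted libraries most of these genes stood moderately above the control. The FPKM ratio was above 1 for 27 of 36 members in the FoxO3-depleted library, against 42.9% of all analysed genes, and for 27 of 36 in the co-depleted library, against 43.7% of all analysed genes. The other 9 in each comparison were below 1, as were 57.1% and 56.3% of all genes. The median log2 ratio of the members, taken on FPKM + 1, was 0.37 for FoxO3 depletion over control and 0.27 for co-depletion over control, while the medians of all analysed genes were -0.07 and -0.06. Few differences were large. BYSL, NOLC1, NOP16 and RRP9 passed 1.5-fold upward in the FoxO3-depleted library, where 4.0% of all genes did. BYSL and RRP9 did so in the co-depleted library, where 4.02% of all genes did. RRP9 rests on only 24 to 44 reads per library. After adjustment for GC content 7 members passed after FoxO3 depletion (5.85% of all genes) and WDR12 alone after co-depletion (4.62%). A minority that included HEATR1, UTP20 and NOP58 stood below the control; their transcripts are among the poorest in GC of the set, and after adjustment for GC content UTP20 was above the control in both comparisons, HEATR1 in the first and NOP58 in the second.

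The depth behind the FPKM values, recovered from the values themselves, was 10760613 reads in the FoxO3-depleted library, 12267332 in the co-depleted library and 14507410 in the control. Both targets had low levels where the labels name their depletion. FOXO3 was at 2.79 FPKM in the FoxO3-depleted library, 2.94 FPKM in the co-depleted library and 12.2 FPKM in the control. GMNN, the gene of Geminin, was at 112.23, 36.99 and 112.29 FPKM in the same order. Of the markers of the line, VIM, CD44, AXL and CAV1 were far above 1 FPKM, and ESR1 and PGR were at most at 0.119 FPKM in any library. CDH1 reached 1.02 FPKM at most, but EPCAM lay between 8.95 and 13.7 FPKM and ERBB2 between 38.0 and 46.8 FPKM, so not every gene listed as low for this line was near 0. Of the leukocyte markers, CD14 was at 8.09 FPKM in the FoxO3-depleted library, 8.59 FPKM in the co-depleted library and 6.76 FPKM in the control, PTPRC was at most at 0.191 FPKM, and CD3E was at 0 throughout. Of the endothelial and HEK293 markers, PECAM1 and NEFL had no values, and the others stayed below 1 FPKM in every library.

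MYC (ENSG00000136997), the regulator of the set, was at 114.0 FPKM after FoxO3 depletion, 111.7 FPKM after co-depletion and 77.9 FPKM in the control. Both depleted libraries were thus above the control and close to each other. The FPKM ratio was 1.46 for FoxO3 depletion over control, with a 95% counting interval of 1.37 to 1.56, and 1.43 (1.35 to 1.53) for co-depletion over control. These intervals, given in the same way below, are exact Clopper-Pearson intervals on the recovered reads of the libraries compared; they cover counting error only and not the variation between cultures. In RNA from whole cultures, a change in the number of cells that carry a transcript and a change in transcripts per cell cannot be told apart.

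Promoters were searched for CACGTG, the canonical E-box that MYC and MAX bind, and for GTAAACA, a forkhead motif, each on both strands. The windows were RefSeq's, in build GRCh38.p14, from 250 bases before to 50 after the annotated start, and 30 of the 36 members were matched by symbol; MYC, NOP58, NOLC1, RRP12, RRP1B and RRS1 were not. CACGTG was present in 11 of 30 member promoters (36.7%), against 10.2% of 9459 promoters of analysed genes and 7.45% of all 27195 promoters. The median log2 ratio after FoxO3 depletion was 0.49 in the 11 with it and 0.23 in the 19 without it. Above 0 were 9 of 11 and 13 of 19, against 42.9% of all analysed genes. After co-depletion the medians were 0.35 and 0.21. Neither pair of medians was adjusted for transcript GC content, and whether their gap goes with it was not tested. GTAAACA was present in 1 member promoter, that of NOP14 (3.33%), against 2.21% of the promoters of analysed genes. A few windows show that the E-box letters occur on both sides of the control: BYSL and NOP16 had the highest mean ratios among matched members above 5 FPKM with and without CACGTG, UTP20 and HEATR1 the lowest. The capitals mark CACGTG, which begins 28 bases after the start in BYSL and 10 bases before it in UTP20; NOP16 and HEATR1 have none in this window.
BYSL promoter, GRCh38.p14 chr6:41921249-41921548, plus strand: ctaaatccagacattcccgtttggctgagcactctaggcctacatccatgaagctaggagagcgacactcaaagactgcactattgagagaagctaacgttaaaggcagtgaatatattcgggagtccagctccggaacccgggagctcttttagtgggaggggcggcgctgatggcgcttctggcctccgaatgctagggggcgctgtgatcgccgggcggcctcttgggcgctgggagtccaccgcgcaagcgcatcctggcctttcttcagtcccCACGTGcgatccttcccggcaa
NOP16 promoter, GRCh38.p14 chr5:176388549-176388848, minus strand: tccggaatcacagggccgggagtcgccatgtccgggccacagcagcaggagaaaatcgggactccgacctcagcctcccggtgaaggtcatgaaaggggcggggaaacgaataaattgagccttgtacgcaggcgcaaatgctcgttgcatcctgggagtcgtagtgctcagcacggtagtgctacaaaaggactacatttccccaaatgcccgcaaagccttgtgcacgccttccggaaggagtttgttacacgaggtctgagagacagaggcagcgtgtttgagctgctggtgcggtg
UTP20 promoter, GRCh38.p14 chr12:101279855-101280154, plus strand: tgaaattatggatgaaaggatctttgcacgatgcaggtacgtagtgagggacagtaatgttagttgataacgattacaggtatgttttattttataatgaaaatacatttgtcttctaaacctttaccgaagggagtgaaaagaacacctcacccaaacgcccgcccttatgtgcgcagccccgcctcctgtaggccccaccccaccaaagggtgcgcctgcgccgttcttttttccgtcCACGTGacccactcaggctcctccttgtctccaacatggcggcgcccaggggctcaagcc
HEATR1 promoter, GRCh38.p14 chr1:236604467-236604766, minus strand: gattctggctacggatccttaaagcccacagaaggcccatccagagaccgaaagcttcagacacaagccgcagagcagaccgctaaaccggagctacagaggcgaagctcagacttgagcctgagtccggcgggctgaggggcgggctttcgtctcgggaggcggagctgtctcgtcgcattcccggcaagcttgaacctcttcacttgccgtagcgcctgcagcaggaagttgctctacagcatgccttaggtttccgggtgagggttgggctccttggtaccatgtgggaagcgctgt

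The RNA polymerase I machinery was divided. POLR1A (ENSG00000068654), the largest catalytic subunit, was at 120.6 FPKM after FoxO3 depletion, 108.1 FPKM after co-depletion and 87.3 FPKM in the control. POLR1B (ENSG00000125630), which completes the catalytic cleft, was at 32.5, 28.3 and 23.7 FPKM in the same libraries. POLR1C (ENSG00000171453), a subunit shared with RNA polymerase III, was at 61.5, 57.0 and 47.2 FPKM. All 3 subunits had the order FoxO3 depletion, co-depletion, control from high to low, and their FPKM ratios to the control were 1.38 (1.31 to 1.45), 1.37 (1.23 to 1.53) and 1.30 (1.18 to 1.45) after FoxO3 depletion, and 1.24 (1.18 to 1.30), 1.19 (1.07 to 1.33) and 1.21 (1.09 to 1.34) after co-depletion. The factors that bring the polymerase to ribosomal promoters were closer to the control. UBTF (ENSG00000108312), the HMG-box protein that binds the ribosomal gene promoter, was at 47.4 FPKM after FoxO3 depletion, 49.4 FPKM after co-depletion and 52.0 FPKM in the control. RRN3 (ENSG00000085721), which couples the polymerase to its promoter, was at 20.005, 21.6 and 20.9 FPKM, and its intervals include 1 in both comparisons with the control. With GC adjusted (42.1% in its transcripts) the log2 ratios of RRN3 were 0.28 after FoxO3 depletion and 0.33 after co-depletion, beside 0.36 to 0.46 and 0.27 to 0.29 for the 3 subunits. UBTF was the one member at or above the median GC content of all genes, at 56.0%, that lay below the control, at a ratio of 0.911 (0.843 to 0.984) in the FoxO3-depleted library and 0.95 (0.883 to 1.02) in the co-depleted one.

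**Figure D1:**
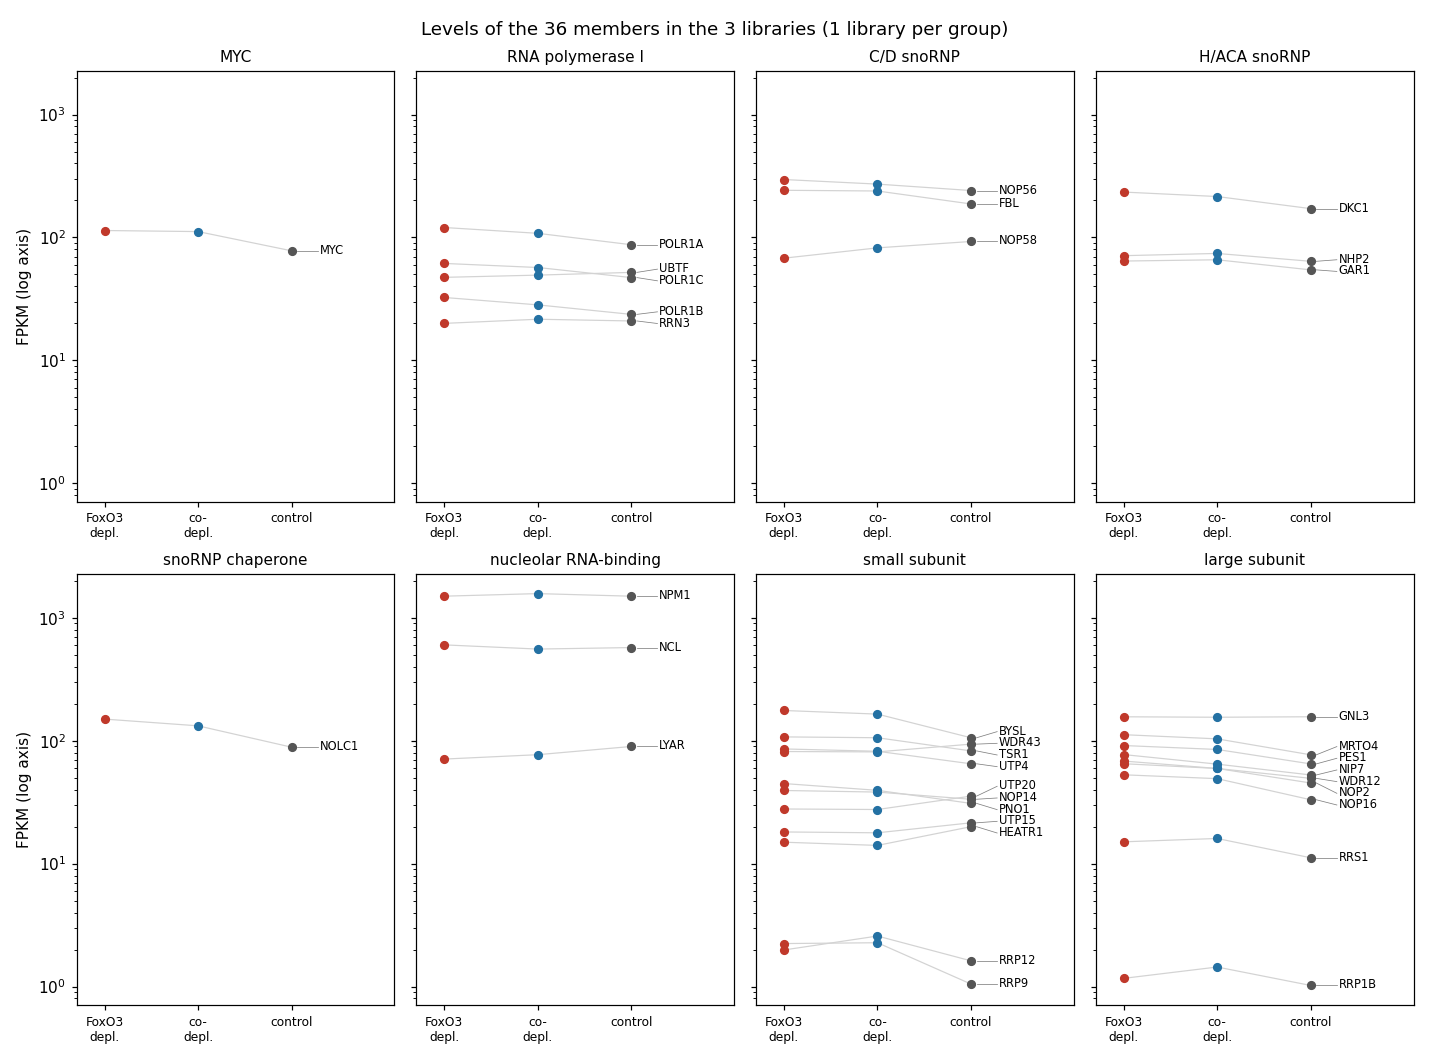
Level of each of the 36 members (FPKM, log axis) in the FoxO3-depleted, the co-depleted and the control library, 1 point per library, with a panel for each role and lines joining the points of a gene. Most lines slope down to the control on the right, those of NOP58, LYAR, WDR43, UTP15, UTP20, HEATR1 and UBTF slope up, and RRP9, RRP12 and RRP1B lie far below the other members.

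Among the core proteins of the C/D snoRNPs, which guide ribose methylation of ribosomal RNA, the members differed in direction. FBL (ENSG00000105202), the methyltransferase fibrillarin, was at 242.1 FPKM after FoxO3 depletion, 238.9 FPKM after co-depletion and 187.4 FPKM in the control. NOP56 (ENSG00000101361) was at 296.2, 271.8 and 241.0 FPKM. NOP58 (ENSG00000055044), its paralogue in the same particle, was at 67.9 FPKM after FoxO3 depletion, 82.3 FPKM after co-depletion and 92.8 FPKM in the control. FBL and NOP56 were above the control in both depleted libraries, with ratios of 1.29 (1.22 to 1.37) and 1.23 (1.17 to 1.29) after FoxO3 depletion, whereas NOP58 had the lowest ratio of all members in that comparison, 0.732 (0.661 to 0.810). NOP58 transcripts have 42.2% GC, those of FBL 56.7% and those of NOP56 52.0%. With GC adjusted the log2 ratios of NOP58 were -0.10 after FoxO3 depletion and 0.11 after co-depletion. Those of FBL were 0.26 and 0.25, and those of NOP56 0.28 and 0.16.

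The H/ACA snoRNP proteins, which carry out pseudouridylation, all stood above the control. DKC1 (ENSG00000130826), the pseudouridine synthase dyskerin, was at 234.2 FPKM after FoxO3 depletion, 215.4 FPKM after co-depletion and 171.7 FPKM in the control. GAR1 (ENSG00000109534) was at 64.3, 65.9 and 54.5 FPKM and NHP2 (ENSG00000145912) at 71.1, 74.2 and 64.0 FPKM. DKC1 differed most, with ratios of 1.36 (1.28 to 1.45) and 1.255 (1.18 to 1.33) for FoxO3 depletion and co-depletion over control, and the interval of NHP2 after FoxO3 depletion, 0.979 to 1.26, includes 1.

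NOLC1 (ENSG00000166197), the phosphoprotein that accompanies snoRNPs between Cajal bodies and nucleoli, had the highest log2 ratio on FPKM + 1 of all members after FoxO3 depletion, 0.75. It was at 150.0 FPKM after FoxO3 depletion, 132.2 FPKM after co-depletion and 88.6 FPKM in the control. Relative to the control its ratio was 1.69 (1.61 to 1.78) in the FoxO3-depleted library and 1.49 (1.42 to 1.56) in the co-depleted one, and the co-depleted library lay below the FoxO3-depleted one, at a ratio of 0.881 (0.843 to 0.922). Its transcripts have 49.7% GC, where the trend of all genes is near 0, and adjustment for GC left its log2 ratios at 0.73 and 0.57.

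The most abundant members lay close to the control before adjustment for GC. NPM1 (ENSG00000181163), the histone chaperone nucleophosmin, was at 1500.0 FPKM after FoxO3 depletion, 1573.9 FPKM after co-depletion and 1499.4 FPKM in the control. NCL (ENSG00000115053), the RNA-binding protein nucleolin, was at 602.3, 557.0 and 572.8 FPKM. After FoxO3 depletion the ratio was 1.0004 (0.978 to 1.02) for NPM1 and 1.052 (1.02 to 1.08) for NCL. After co-depletion it was 1.0497 (1.03 to 1.07) for NPM1 and 0.972 (0.946 to 0.9995) for NCL, whose direction there flips when ratios are centred on the median gene or adjusted for GC. The direction of NPM1 after FoxO3 depletion flips when the values are rescaled to TPM, and with GC adjusted (42.3% in its transcripts) its log2 ratios were 0.33 after FoxO3 depletion and 0.35 after co-depletion. NPM1 has 45 named pseudogenes in GENCODE 29 and NCL 2, so the reads credited to them are uncertain. LYAR (ENSG00000145220), a nucleolar zinc finger protein, was below the control, at 70.9 FPKM after FoxO3 depletion and 76.997 FPKM after co-depletion against 89.8 FPKM in the control, and with GC adjusted its log2 ratio was -0.05 after FoxO3 depletion and 0.02 after co-depletion.

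Assembly factors of the small subunit lay on both sides of the control, 7 of 11 above it and 4 below it in each comparison. Of all analysed genes, 42.9% and 43.7% lay above the control after FoxO3 depletion and co-depletion, and 57.1% and 56.3% below it. BYSL (ENSG00000112578), bystin, which acts on the late small-subunit precursor, was at 176.2 FPKM after FoxO3 depletion, 164.7 FPKM after co-depletion and 105.7 FPKM in the control. PNO1 (ENSG00000115946), an RNA-binding partner of the nuclease that makes the final cut, was at 44.8, 39.5 and 30.9 FPKM. TSR1 (ENSG00000167721), a factor that resembles a GTPase and caps the precursor, was at 107.5, 105.8 and 82.6 FPKM. These 3 factors of late maturation were all above the control in both depleted libraries: BYSL at ratios of 1.67 (1.56 to 1.78) and 1.56 (1.46 to 1.66), PNO1 at 1.45 (1.28 to 1.64) and 1.28 (1.13 to 1.44), and TSR1 at 1.30 (1.21 to 1.39) and 1.28 (1.20 to 1.37). NOP14 (ENSG00000087269), a scaffold of the small-subunit processome, was closer to the control, at 39.4 FPKM after FoxO3 depletion, 38.2 FPKM after co-depletion and 33.4 FPKM in the control.

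The early processome that assembles on the nascent precursor was split within one subcomplex. UTP4 (ENSG00000141076, cirhin), UTP15, WDR43 and HEATR1 belong to the UTP-A subcomplex, which binds the leader of the precursor. UTP4 was at 85.8 FPKM after FoxO3 depletion, 82.1 FPKM after co-depletion and 64.9 FPKM in the control. HEATR1 (ENSG00000119285) was at 14.9, 14.1 and 19.98 FPKM. UTP4 was therefore above the control at ratios of 1.32 (1.21 to 1.44) and 1.26 (1.16 to 1.37), and HEATR1 below it at 0.748 (0.672 to 0.831) and 0.704 (0.635 to 0.781). UTP15 (ENSG00000164338) was at 18.1 FPKM after FoxO3 depletion, 17.8 FPKM after co-depletion and 21.5 FPKM in the control, and WDR43 (ENSG00000163811) at 81.7, 81.1 and 93.9 FPKM. UTP20 (ENSG00000120800), a very large helical-repeat protein of the same processome, was at 27.8, 27.6 and 35.4 FPKM. HEATR1, UTP15, WDR43 and UTP20 had transcripts of 39.3% to 44.3% GC, and UTP4 of 48.4%. After adjustment for GC, UTP15, WDR43 and UTP20 had log2 ratios above 0 in both comparisons with the control, between 0.02 and 0.27, and HEATR1 had 0.13 after FoxO3 depletion and -0.07 after co-depletion.

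RRP9, RRP12 and RRP1B were far lower than the other members in every library. RRP9 (ENSG00000114767), a protein of the U3 snoRNP, was at 2.24 FPKM after FoxO3 depletion, 2.27 FPKM after co-depletion and 1.05 FPKM in the control, resting on 38, 44 and 24 reads. RRP12 (ENSG00000052749), an export factor of ribosomal precursors, was at 1.98, 2.58 and 1.62 FPKM, and RRP1B (ENSG00000160208), a nucleolar protein of large-subunit assembly, at 1.17, 1.44 and 1.02 FPKM. The next member by mean level, RRS1, averaged 14.1 FPKM over the libraries. Counting intervals at these depths are wide: the ratio of RRP9 to the control was 2.135 (1.248 to 3.72) in the FoxO3-depleted library and 2.17 (1.29 to 3.73) in the co-depleted one, and those of RRP12 and RRP1B after FoxO3 depletion include 1. After co-depletion the ratio to the control was 1.59 (1.11 to 2.298) for RRP12 and 1.41 (1.02 to 1.96) for RRP1B.

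Among the assembly factors of the large subunit, 8 of 9 members had a ratio above 1 in each comparison with the control, and the other was GNL3, close to 1. Of all analysed genes, 42.9% had a ratio above 1 after FoxO3 depletion and 43.7% after co-depletion. The median log2 ratio of the large-subunit members was 0.49 after FoxO3 depletion and 0.38 after co-depletion, where the small-subunit members had 0.23 and 0.33. The median GC content was 55.1% in the large-subunit and 48.4% in the small-subunit members. With GC adjusted the medians were 0.47 and 0.36, where the small-subunit members had 0.27 and 0.33. With GC and length adjusted they were 0.41 and 0.31, where the small-subunit members had 0.33 and 0.29. NOP16 (ENSG00000048162) was at 52.8 FPKM after FoxO3 depletion, 49.2 FPKM after co-depletion and 33.1 FPKM in the control, with ratios to the control of 1.60 (1.39 to 1.84) and 1.49 (1.29 to 1.71). PES1 (ENSG00000100029) and WDR12 (ENSG00000138442), which work in one complex with BOP1, were both above the control. PES1 was at 91.4, 84.9 and 64.8 FPKM. WDR12 was at 68.4, 59.5 and 49.4 FPKM, its transcripts have only 41.1% GC, and its log2 ratios after adjustment for GC were 0.93 after FoxO3 depletion and 0.65 after co-depletion.

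NOP2 (ENSG00000111641), a cytosine methyltransferase of the large ribosomal RNA, was at 65.0 FPKM after FoxO3 depletion, 59.5 FPKM after co-depletion and 45.3 FPKM in the control. MRTO4 (ENSG00000053372), which holds the place of the ribosomal stalk protein in the precursor, was at 112.0, 103.6 and 76.8 FPKM. NIP7 (ENSG00000132603), an RNA-binding processing factor, was at 77.2, 64.5 and 52.7 FPKM. All 3 were highest after FoxO3 depletion, intermediate after co-depletion and lowest in the control, with ratios of 1.43 to 1.47 for FoxO3 depletion over control. RRS1 (ENSG00000179041), which helps bring the small ribosomal RNA of the large subunit into place, was at 15.1, 16.0 and 11.2 FPKM. GNL3 (ENSG00000163938), the nucleolar GTPase nucleostemin, was level, at 156.6 FPKM after FoxO3 depletion, 155.3 FPKM after co-depletion and 156.7 FPKM in the control. Its direction in both comparisons with the control, and that of RRN3 after FoxO3 depletion, flips when ratios are centred on the median gene or adjusted for GC.

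**Figure D2:**
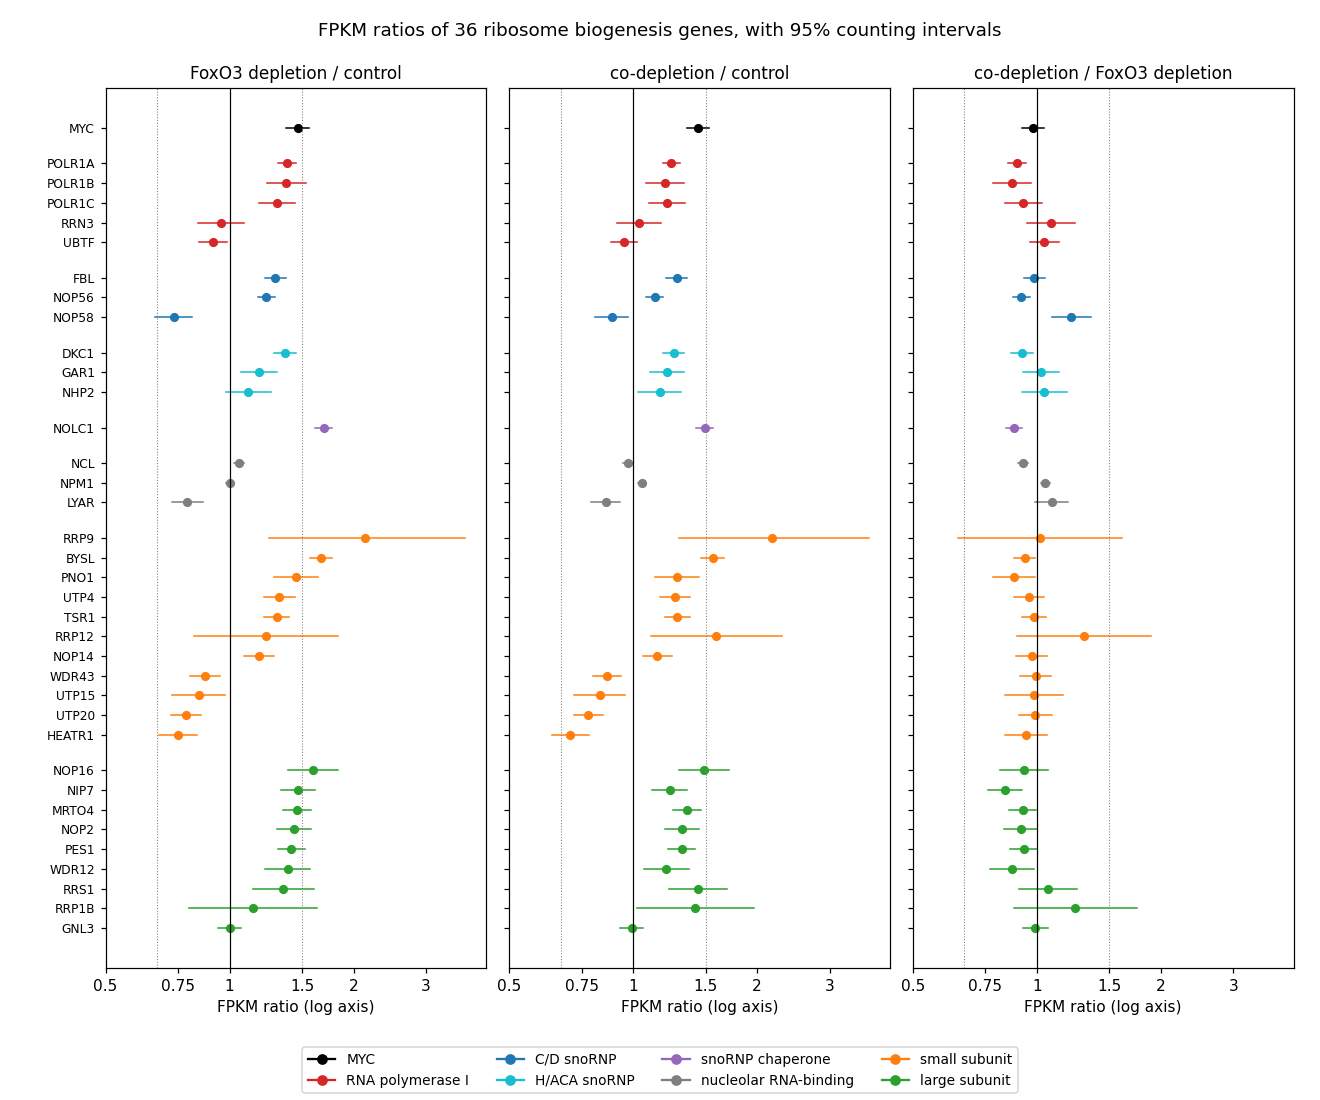
FPKM ratio (log axis) of the 36 members for FoxO3 depletion over control, co-depletion over control and co-depletion over FoxO3 depletion, grouped and coloured by role, with points for ratios and bars for 95% counting intervals. Dotted lines mark 1.5-fold in either direction; most points lie right of 1 in the first 2 panels, and no point passes a dotted line in the third.

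Counted over all members, 19 of 36 had a log2 ratio on FPKM + 1 of at least 0.32 after FoxO3 depletion, against 14.2% of all analysed genes, and 4 were lower by as much, against 30.2%. After co-depletion 15 were higher by that size, against 13.8% of all genes, and 2 lower, against 26.6%. At 1.5-fold the members higher numbered 4 after FoxO3 depletion, against 4.0% of all genes, and 2 after co-depletion, against 4.02%. No member was 1.5-fold lower in either comparison, where 16.7% and 12.3% of all genes were. At 2-fold on FPKM + 1, a scale that understates the change of low genes such as RRP9 (FPKM ratios of 2.135 and 2.17), 0 members were higher or lower in either, where 0.672% and 0.625% of all genes were higher and 5.23% and 2.25% lower. After adjustment for GC, 7 members were 1.5-fold higher after FoxO3 depletion (5.85% of all genes) and 1 after co-depletion (4.62%), and 0 were lower in either (9.37% and 6.14%). The adjusted set after FoxO3 depletion adds WDR12, NIP7 and PNO1 to the 4 named above, and after co-depletion it holds WDR12 alone. Both comparisons use the same control library.

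By the counting intervals, 23 members lay above 1 and 7 below after FoxO3 depletion, where 24.4% of all genes lay above and 34.5% below. After co-depletion 26 lay above and 7 below, where 24.2% of all genes lay above and 32.5% below. The members are well expressed, with a median level of 67.3 FPKM against 18.4 FPKM for all analysed genes and 31 of 36 above that level, and intervals narrow as reads increase. As a share of all reads, the 36 members took 0.562% (exact binomial 95% interval 0.557% to 0.566%) in the FoxO3-depleted library, 0.543% (0.539% to 0.547%) in the co-depleted library and 0.486% (0.483% to 0.490%) in the control. Without NCL and NPM1, which hold a large part of these reads, the shares were 0.357%, 0.339% and 0.286%.

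Transcript composition moved with the ratios. Across the 36 members, which are not independent replicates and share the same libraries, Spearman's rho between log2 ratio and GC content was 0.60 after FoxO3 depletion and 0.77 after co-depletion, and across all analysed genes it was 0.39 and 0.42. Of the 17 members at or above the median GC content of all genes (49.7%), 16 had a ratio above 1 after FoxO3 depletion, with a median log2 ratio of 0.40, against 0.05 for all genes in that range. Of the 19 members below it, 11 had a ratio above 1, with a median of 0.07, against -0.24 for all genes in that range. Of all analysed genes at any GC content, 42.9% had a ratio above 1 after FoxO3 depletion. After adjustment for GC, 33 of 36 members were above 1 after FoxO3 depletion (49.9% of all genes) and 34 of 36 after co-depletion (50.1% of all genes). UBTF was below 1 in both, joined by NOP58 and LYAR after FoxO3 depletion and by HEATR1 after co-depletion. The medians of the adjusted log2 ratios were 0.31 and 0.33. What part of any single member's difference goes with GC content was not tested beyond this adjustment.

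**Figure D3:**
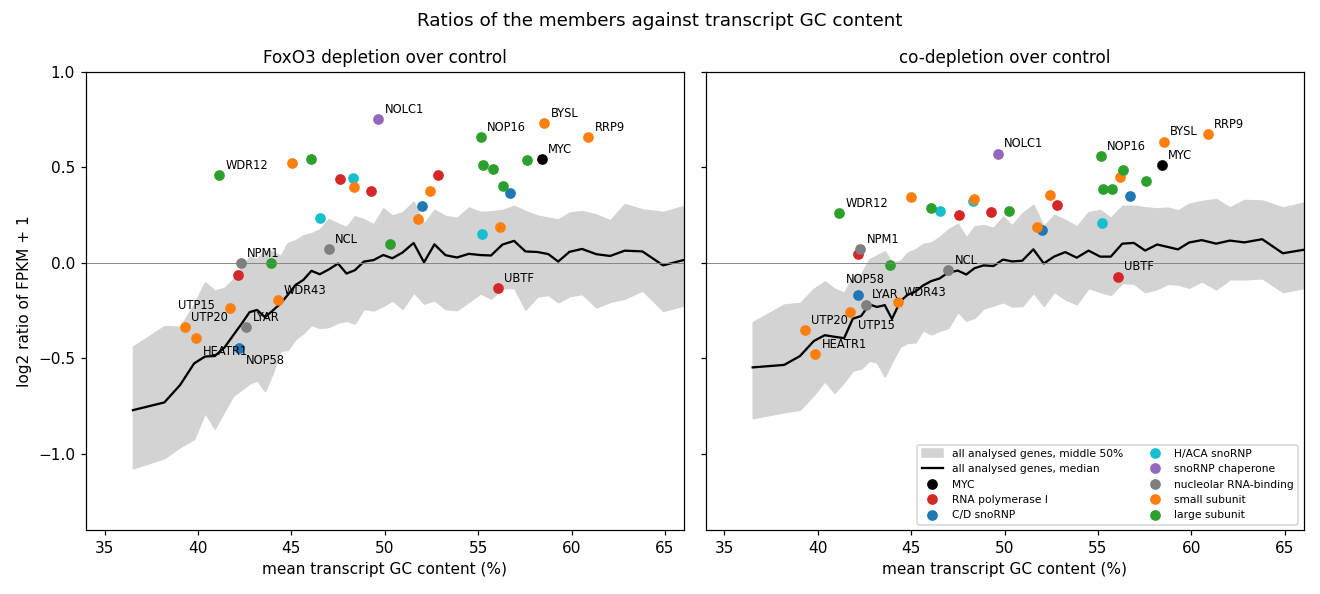
Log2 ratio of FPKM + 1 of each member (points, coloured by role) against the mean GC content of its GENCODE 29 transcripts, for FoxO3 depletion over control on the left and co-depletion over control on the right. The black line is the median and the grey band the middle 50% of all analysed genes in 50 bins of GC content; NOLC1, BYSL, NOP16 and WDR12 lie above the band, and WDR43 and LYAR, though below the control, lie near the line.

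**Figure D4:**
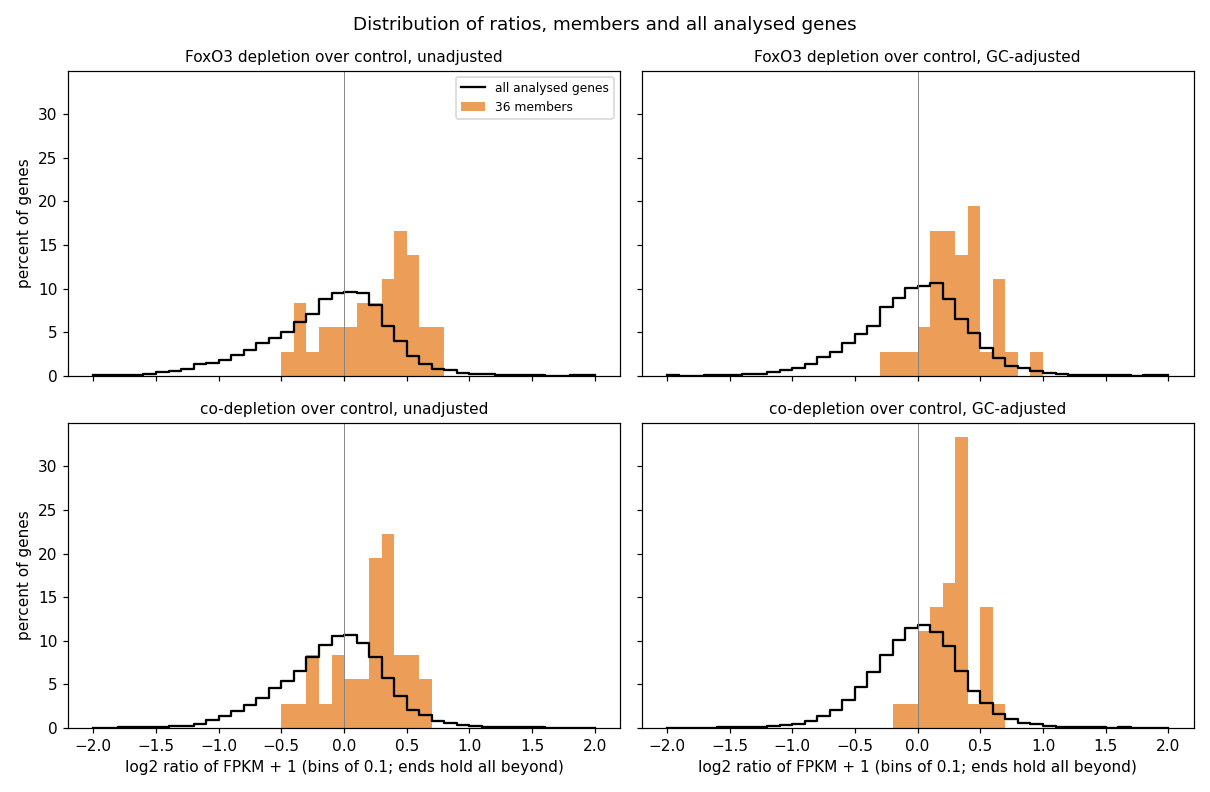
Share of the 36 members (orange bars) and of all 12649 analysed genes (black line) in bins of the log2 ratio of FPKM + 1, before (left) and after (right) adjustment for GC content, for FoxO3 depletion over control (top) and co-depletion over control (bottom). After adjustment the members' low tail below -0.3 is gone and their median stays at 0.31 and 0.33.

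Adding Geminin depletion to FoxO3 depletion gave small differences among the members. The median log2 ratio for co-depletion over FoxO3 depletion was -0.04, against 0.03 for all analysed genes. No member reached a log2 difference of 0.32 in either direction, where 8.39% of all genes were higher and 3.45% lower, and at 1.5-fold 1.35% and 0.617% were. A ratio below 1 was found for 25 of 36 members, against 43.6% of all genes, and a ratio above 1 for 11, against 56.4%. By counting intervals 11 members were lower (8.97% of all genes), namely NCL, NOP56, DKC1, NOLC1, WDR12, NIP7, BYSL, MRTO4, PNO1, POLR1A and POLR1B, and 2 were higher (13.7% of all genes), namely NPM1 and NOP58. The lowest log2 ratio was that of NIP7, -0.25 (FPKM ratio 0.836, 0.760 to 0.920), and the highest that of NOP58, 0.27 (1.21, 1.09 to 1.35). Both members stood nearer to the control in the co-depleted library than in the FoxO3-depleted one.

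Other genes of the pathway, taken from lists compiled for this work, had medians nearer to 0 than the members. Of 124 listed, 119 were analysed, and their median log2 ratio was 0.09 after FoxO3 depletion and 0.12 after co-depletion, or 0.22 and 0.19 after adjustment for GC. After FoxO3 depletion 6 were 1.5-fold higher and 13 lower, where 4.0% and 16.7% of all genes were, and after co-depletion 2 were higher and 2 lower, where 4.02% and 12.3% of all genes were. After adjustment for GC the numbers were 8 higher and 3 lower after FoxO3 depletion, where 5.85% and 9.37% of all genes were. After co-depletion they were 4 higher and 1 lower, where 4.62% and 6.14% of all genes were. The 3 lower after FoxO3 depletion were SENP3, EIF6 and DIS3. These genes are poorer in GC than the members, with a median of 46.8% against 49.5%.

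Of 38 small-subunit factors beyond the members, 4 were higher and 5 lower by 1.5-fold after FoxO3 depletion, where 4.0% and 16.7% of all genes were. UTP14A, RRP36, EMG1 and NOB1 were higher. NOB1, the nuclease that PNO1 assists, was at 48.0 FPKM after FoxO3 depletion, 45.9 FPKM after co-depletion and 31.2 FPKM in the control. EMG1, a methyltransferase of the small ribosomal RNA, was low in every library, at 1.72, 1.254 and 0.495 FPKM, resting on 18, 15 and 7 reads. UTP23, MPHOSPH10, KRR1, RIOK2 and ESF1 were lower, and all have transcripts of at most 43.8% GC. KRR1, which binds the precursor with other early factors, was at 12.3 FPKM after FoxO3 depletion, 20.7 FPKM after co-depletion and 29.8 FPKM in the control, and its log2 ratio after FoxO3 depletion was -1.21, or -0.46 after adjustment for GC. After co-depletion EMG1 alone was 1.5-fold higher and none lower, where 4.02% and 12.3% of all genes were. The counting interval of EMG1 in that comparison, 0.973 to 7.35, includes 1. The lowest was WDR36 at a log2 ratio of -0.58.

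Large-subunit factors beyond the members had 2 of 47 higher by 1.5-fold after FoxO3 depletion, DDX31 and WDR74, where 4.0% of all genes were. The 4 lower were SDAD1, SENP3, EIF6 and CEBPZ, where 16.7% of all genes were lower. EIF6, which keeps the large subunit from joining the small one too early, was at 98.9 FPKM after FoxO3 depletion, 117.5 FPKM after co-depletion and 171.5 FPKM in the control. Its ratio to the control was 0.576 (0.533 to 0.623) in the FoxO3-depleted library and 0.685 (0.639 to 0.735) in the co-depleted one. EIF6 transcripts have 59.5% GC, and the adjustment for GC left its log2 ratios at -0.81 and -0.62. SENP3, a SUMO protease of the nucleolus, was at 16.0, 18.2 and 26.8 FPKM and likewise kept its log2 ratio after adjustment, at -0.75 after FoxO3 depletion. WDR74 was at 46.0 FPKM after FoxO3 depletion, 46.8 FPKM after co-depletion and 29.7 FPKM in the control.

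In the rest of the polymerase I machinery, TWISTNB and TAF1D were 1.5-fold lower after FoxO3 depletion and TAF1B after co-depletion, of 11 genes each, with 0 higher. Of all genes, 16.7% and 12.3% were lower by that size in these comparisons, and 4.0% and 4.02% higher. The adjusted log2 ratios of TWISTNB and TAF1D were 0.01 and 0.06, and their transcripts have 38.8% and 38.7% GC. POLR1E was highest after FoxO3 depletion (log2 ratio 0.47) and CD3EAP after co-depletion (0.44), while between the depleted libraries TAF1C had the highest log2 ratio, 0.55, at 18.2 FPKM after co-depletion and 12.1 FPKM after FoxO3 depletion. Among other snoRNP proteins ZNHIT6 was lower in both comparisons with the control, at log2 ratios of -0.87 and -0.66, or -0.29 and -0.22 after adjustment, and RUVBL1, a chaperone ATPase of snoRNP assembly, had the highest ratios, 0.51 and 0.34.

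The RNA exosome, which trims ribosomal RNA ends, had 1 of 13 genes lower by 1.5-fold after FoxO3 depletion, where 16.7% of all genes were. That gene was DIS3, an exosome nuclease, at 8.75 FPKM after FoxO3 depletion, 12.4 FPKM after co-depletion and 18.9 FPKM in the control, with EXOSC1 the highest at a log2 ratio of 0.56. After co-depletion DIS3 was the lowest, at -0.57, and EXOSC7 the highest, at 0.47. In the MYC network MLX was higher and MGA lower by 1.5-fold after FoxO3 depletion, of 9 genes, where 4.0% and 16.7% of all genes were. Their log2 ratios were 0.60 and -0.64, but with GC adjusted these were 0.56 and -0.33 and neither passed 1.5-fold. MXI1, a repressor that competes with MYC for its partner MAX, was at 8.49 FPKM after FoxO3 depletion, 7.13 FPKM after co-depletion and 12.5 FPKM in the control. Its log2 ratio after co-depletion was -0.73, the lowest of that list, and -0.71 after adjustment for GC. Of 9 RNA polymerase III subunits POLR3G was 1.5-fold lower after FoxO3 depletion, where 16.7% of all genes were. Its log2 ratio was -0.70, or -0.24 with GC adjusted, which does not pass 1.5-fold, and POLR3D was highest (0.55). After co-depletion none passed 1.5-fold, where 4.02% of all genes were higher and 12.3% lower, with POLR3B at -0.14 and POLR3D at 0.51.

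Between the depleted libraries 2 of the 119 other pathway genes passed 1.5-fold upward and 0 downward, where 1.35% and 0.617% of all genes did. CEBPZ was at 25.7 FPKM after co-depletion and 15.2 FPKM after FoxO3 depletion, a ratio of 1.69 (1.45 to 1.97). KRR1 had a ratio of 1.68 (1.41 to 2.01). On the FPKM + 1 scale CEBPZ had a log2 ratio of 0.72 and KRR1 of 0.71. With GC adjusted these were 0.584962 for CEBPZ, just at the 1.5-fold limit, and 0.51 for KRR1, and neither passed it. The lowest log2 ratios of the lists were those of POLR1E (-0.17), NOP10 (-0.22), EMG1 (-0.27), DDX31 (-0.33), EXOSC3 (-0.24), MXI1 (-0.22) and POLR3K (-0.14), and the highest in the other lists were ZNHIT6 (0.21), DIS3 (0.46), MXD3 (0.21) and POLR3G (0.58).

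Beyond their levels, some of the members have features of gene structure in common. In GENCODE 29, 8 of 36 members (22.2%) contain an annotated snoRNA or scaRNA gene on the same strand, against 1.95% of all analysed genes. These hosts are GNL3 with 6 such genes, NOP56 with 5, NOP58 with 4, NCL and WDR43 with 3, DKC1 and TSR1 with 2 and POLR1C with 1. Hosts were found on both sides of the control, NOP58 and WDR43 below it and DKC1, TSR1, POLR1C and NOP56 above it in both depleted libraries. An exon of 13 members overlaps an exon of another gene that reached a mean of 1 FPKM, and since the strand setting of the counting is not given, reads of NOP14, NOP16, NHP2, PES1, WDR12, UTP4, UTP15, HEATR1, NIP7, GNL3, MRTO4, TSR1 and POLR1C are uncertain to that extent. Besides NPM1 and NCL, named pseudogenes exist for NOP56, NHP2, PES1, NIP7, LYAR and RRN3, 1 to 3 each, with the same uncertainty.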

How the data were processed

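The authors deposited 1 FPKM table per library, with TopHat2 2.0.9 named in the submitters' processing notes. The sources used here name no read counter, genome build, annotation or setting for strand. Per the labels' protocols, libraries were made with a TruSeq RNA kit from 3 ug of total RNA. Symbols, transcript GC content and lengths came from GENCODE 29, which matched 45341 of 48162 IDs.

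Whole reads were recovered for 99.98% of 20591 genes as the smallest whole numbers that give the deposited FPKM values in all libraries, within their rounding; the same search gave whole numbers for 13.0% of 2000 genes whose values had been altered at random. Where needed (6 members), reads were multiplied so that the length behind the FPKM was whole and within the gene's transcript lengths. Counting intervals are exact, at 95%, for independent reads, and cover counting error only. PCR copies are not independent, so the intervals may be too narrow even for that error.

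Log2 ratios used the deposited FPKM plus a pseudocount of 1, over named genes with a mean of at least 1 FPKM. Calls used a fold of 1.5, and a log2 size of 0.32 beside it. GC adjustment subtracted the running median over 50 bins. Recovery and intervals were tested on simulated data. Python 3.11.15, numpy 2.4.6, pandas 2.3.3 and scipy 1.17.1 were used.

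Members, lists and settings were chosen with earlier results of these data known. Every member is named, and of each other list the genes past 1.5-fold or else its highest and lowest ratio; MYC-related and RNA polymerase III lists were kept apart from the 124 pathway genes. Lists of the line's, leukocyte, endothelial and HEK293 markers were used as checks. Some of these markers are not reported here. The forkhead motif was added after the files were seen.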

Additional observations from a re-analysis of the deposited data

How the results depend on the processing

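No paired analysis was possible because each group holds 1 library, and for the same reason no library could be left out. The median log2 ratio of the members moved by less than the median half-width of their counting intervals under each alternative, and no member past 1.5-fold changed sign. Members 1.5-fold higher after FoxO3 depletion numbered 4, but 9 when ratios were centred on the median gene, 7 after GC adjustment, 19 at a smaller size (log2 of 0.32) and 0 at 2-fold; the smaller size found 4 lower in place of 0. After co-depletion they numbered 2, but 1 with a minimum mean of 5 FPKM, 4 when centred on the median gene, 1 after adjustment for GC or for GC and length, 15 at the smaller size and 0 at 2-fold; the smaller size found 2 lower in place of 0. Of the other pathway genes, those higher after FoxO3 depletion (6) became 31 at the smaller size and 0 at 2-fold, and those lower (13) became 3 after either adjustment, 25 at the smaller size and 3 at 2-fold. After co-depletion those higher (2) became 1 with the minimum of 5 FPKM, 4 when centred or GC-adjusted, 25 at the smaller size and 0 at 2-fold. Those lower (2) became 4 with pseudocounts of 0.1 or 0.5, 1 when centred or under either adjustment, 5 after rescaling to TPM, 20 at the smaller size and 0 at 2-fold. Between the depleted libraries those higher (2) became 4 with a pseudocount of 0.1, 0 under either adjustment, 10 at the smaller size and 0 at 2-fold, and 1 was lower at the smaller size. Of single members, GC adjustment moved 12 of 36 by more than their counting error after FoxO3 depletion, 6 of them across 1, and 12 after co-depletion, 7 across 1; adjustment for GC and length moved 12 and 15. The cause of these shifts was not tested. For the centred, TPM, pseudocount, 5 FPKM minimum and GC-and-length settings the share of all genes is not given here. Counts under these settings therefore cannot be set against all genes. Centring raised the ratio of every gene in both comparisons with the control, whose all-gene median log2 ratios were -0.07 and -0.06. RRP9, RRP12 and RRP1B fail the minimum of 5 FPKM, and depth limits what can be said of them.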

Other observations

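RRP9, RRP12 and RRP1B, listed at 1.02 to 2.58 FPKM, stood far below other assembly factors, such as UTP4 at 64.9 to 85.8 FPKM and NOP14 at 33.4 to 39.4 FPKM for the small subunit and PES1 at 64.8 to 91.4 FPKM for the large. EMG1 was similarly low, at 0.495 to 1.72 FPKM. The reads behind RRP1B numbered 61 after FoxO3 depletion, 86 after co-depletion and 72 in the control. The lengths behind their FPKM values were 1578 bases for RRP9, 2341 for RRP12 and 4861 for RRP1B, each within 1 base of the range of their GENCODE 29 transcript lengths. These levels were chosen for mention after they were seen.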
